A study of Mus musculus with 4 samples.

Results

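The leukocyte integrin genes comprise 6 alpha chain genes (Itgam, Itgax, Itgal, Itgae, Itga4 and Itgav) and 4 beta chain genes (Itgb1, Itgb2, Itgb5 and Itgb7). They were taken by symbol from a table of 26026 genes, and all 10 were found, with 1 row each. Messenger RNA had been sequenced from mouse bone marrow-derived cells (BMDC) grown with Flt3 ligand at 100 ng/mL, a growth factor under which marrow progenitors become dendritic cells. There were 4 libraries, 1 for each group: Nfkb1-/- cells (C57/B16) at day 5, wild-type cells (C57/B16) at day 5, Nfkb1-/- cells at day 3 and wild-type cells at day 3. Nfkb1 encodes p105 and its processed form p50, a subunit of the transcription factor NF-kB, and the series asked about the interplay of p50 with the subunit RelA in these cultures. All groups shared the same medium and the same Flt3 ligand, which was replenished at day 3, and the labels name no animal, pool or age. With 1 library per group, no difference between groups has a replicate check, and the intervals below cover counting error only.

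Integrins are adhesion receptors of the cell surface, each a dimer of 1 alpha and 1 beta chain, and the alpha chain largely sets the ligand that is bound. The beta chain Itgb2 is confined to leukocytes and pairs with Itgam (CD11b, in the complement receptor of neutrophils and monocytes), Itgax (CD11c, the usual surface marker of dendritic cells) and Itgal (CD11a, in the lymphocyte function-associated antigen that binds ICAMs). Itgb7 pairs with Itgae (CD103, which binds E-cadherin and marks cross-presenting dendritic cells of tissues) and with Itga4, which forms the gut-homing receptor. Itga4 also pairs with Itgb1, the most widely shared beta chain, in the receptor for VCAM and fibronectin, and Itgav pairs with Itgb1 and Itgb5 in receptors for vitronectin and other matrix proteins.

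The promoters of the genes on which the results turn are shown for Itgam and Itgax, which lie close together on chromosome 7, share the partner Itgb2 and differed in opposite directions between the days, and for Itga4, which was higher in the knockout. Each sequence runs from 250 bases before to 50 bases after the start site, from RefSeq on GRCm38.p6, and this table held 7 of the 10 genes (not Itgal, Itgb2 or Itgae). Capitals mark the letters GGGNNNNNCC, the outer bases of NF-kB sites, and GAGGAA, a core bound by ETS factors such as PU.1, on either strand. The windows are chr7:128062390-128062689 for Itgam, chr7:128129300-128129599 for Itgax and chr2:79255176-79255475 for Itga4, all on the plus strand.
Itgam: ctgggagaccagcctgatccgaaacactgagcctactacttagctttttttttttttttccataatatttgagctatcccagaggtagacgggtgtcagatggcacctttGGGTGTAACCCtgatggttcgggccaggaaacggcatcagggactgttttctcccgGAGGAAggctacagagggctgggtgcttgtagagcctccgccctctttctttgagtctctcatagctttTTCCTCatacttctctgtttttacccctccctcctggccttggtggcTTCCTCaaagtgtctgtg
Itgax: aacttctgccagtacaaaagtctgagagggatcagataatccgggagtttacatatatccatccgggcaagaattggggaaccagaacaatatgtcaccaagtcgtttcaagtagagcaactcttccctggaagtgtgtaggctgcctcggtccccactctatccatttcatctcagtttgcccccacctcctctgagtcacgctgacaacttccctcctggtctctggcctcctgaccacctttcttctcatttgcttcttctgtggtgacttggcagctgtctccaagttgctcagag
Itga4: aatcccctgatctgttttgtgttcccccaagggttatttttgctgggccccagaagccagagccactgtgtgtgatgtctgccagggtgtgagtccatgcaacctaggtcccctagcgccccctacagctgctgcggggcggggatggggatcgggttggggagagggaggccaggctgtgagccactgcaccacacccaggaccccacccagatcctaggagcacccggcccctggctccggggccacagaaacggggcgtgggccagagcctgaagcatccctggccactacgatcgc
The Itgam window held 2 matches to GGGNNNNNCC, which overlap each other on opposite strands, and 3 matches to GAGGAA. The windows of Itgax and Itga4 held neither. Of all 32851 RefSeq promoter windows of this length, 50.8% held GGGNNNNNCC and 28.3% held GAGGAA, and a match of letters is no measured site.

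Levels are given in RPKM, reads per kilobase of transcript relative to the library total, so that levels of different genes can be compared. The library totals recovered from these values were between 15255070 and 16215214 reads. Over the 4 libraries a member held from 34 to 16748 reads, and at least 608 when Itgae is set aside. Nfkb1 stood at 64.7 RPKM in the knockout and 114 RPKM in wild type at day 5, and at 56.0 RPKM in the knockout and 74.8 RPKM in wild type at day 3, so the targeted gene was lower in both knockout libraries but present. By summed RPKM, the neutrophil markers stood above each list of dendritic cell markers, but sums over different genes do not measure shares of cell types. The 11 neutrophil markers summed to 2799 RPKM in the knockout and 13063 RPKM in wild type at day 5 and to 22798 RPKM in the knockout and 32390 RPKM in wild type at day 3, while the 8 markers of cross-presenting (type 1) dendritic cells summed to 216, 484, 183 and 216 RPKM in the same libraries. The 8 markers of type 2 conventional dendritic cells summed to 241, 281, 261 and 241 RPKM in that order of libraries. The 9 plasmacytoid dendritic markers summed to 360, 539, 409 and 399 RPKM. None of these markers stood at the lowest listed value, that of 1 read, in all libraries. In bulk libraries such as these, fewer cells of a type and less RNA per cell cannot be told apart.

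Of the chains that pair with Itgb2, Itgax differed most between the genotypes. Itgax (NM_021334) stood at 20.03 RPKM in the knockout and 55.3 RPKM in wild type at day 5, and at 11.1 RPKM in the knockout and 18.4 RPKM in wild type at day 3. It was lower in the knockout at both days and higher at day 5 in both genotypes, and the wild-type day 5 library stood above the other 3. Knockout over wild type gave 0.362 (exact 95% counting interval 0.339 to 0.386) at day 5 and 0.604 (0.549 to 0.663) at day 3. Day 5 over day 3 gave 1.81 (1.65 to 1.98) in the knockout and 3.01 (2.82 to 3.22) in wild type.

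Itgam (NM_001082960) had 86.8 RPKM in the knockout and 91.7 RPKM in wild type at day 5, against 132 RPKM in the knockout and 144 RPKM in wild type at day 3. It was lower at day 5 in both genotypes, by a ratio of 0.657 (0.636 to 0.678) in the knockout and 0.638 (0.619 to 0.658) in wild type, while knockout over wild type gave 0.947 (0.915 to 0.980) at day 5 and 0.919 (0.894 to 0.945) at day 3. After rescaling to a common median ratio its log2 difference between the genotypes at day 3 was -0.29, against -0.12 as reported. The neutrophil markers differed the same way between the days. In each genotype 11 of 11 were lower by at least 1 on the log2 scale. Over all genes, 3.01% were lower in the knockout and 2.05% in wild type. The markers' median was -2.98 in the knockout and -1.37 in wild type, while Itgam differed by -0.60 and -0.64. Between the genotypes at day 5, 10 of the 11 were lower in the knockout (3.22% over all genes), with a median of -2.24. Itgam differed there by -0.08. The summed level of the 9 monocyte and macrophage markers was 6813 RPKM in the knockout and 5303 RPKM in wild type at day 5, against 7959 RPKM in the knockout and 5688 RPKM in wild type at day 3. The sum hides differences in both directions. At day 5, 2 of these 9 markers were higher in the knockout by at least 1 on the log2 scale, and 1 was lower. Over all genes, 1.16% were higher and 3.22% lower. The part of either cell type in the Itgam values was not tested.

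Itgal (NM_001253872) varied little, with 54.3 RPKM in the knockout and 50.8 RPKM in wild type at day 5 and 59.3 RPKM in the knockout and 47.4 RPKM in wild type at day 3. It was somewhat higher in the knockout, by a ratio of 1.07 (1.02 to 1.11) at day 5 and 1.25 (1.20 to 1.31) at day 3, and day 5 over day 3 gave 0.915 (0.878 to 0.953) in the knockout and 1.07 (1.03 to 1.12) in wild type, where the log2 difference of 0.10 turned to -0.07 after rescaling to a common median ratio. The shared chain Itgb2 (NM_008404) had 119 RPKM in the knockout and 139.8 RPKM in wild type at day 5, and 158 RPKM in the knockout and 168 RPKM in wild type at day 3. Itgb2 was thus lower at day 5 in both genotypes and lower in the knockout at both days, with knockout over wild type at 0.848 (0.818 to 0.880) at day 5 and 0.943 (0.912 to 0.974) at day 3.

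**Figure D1:**
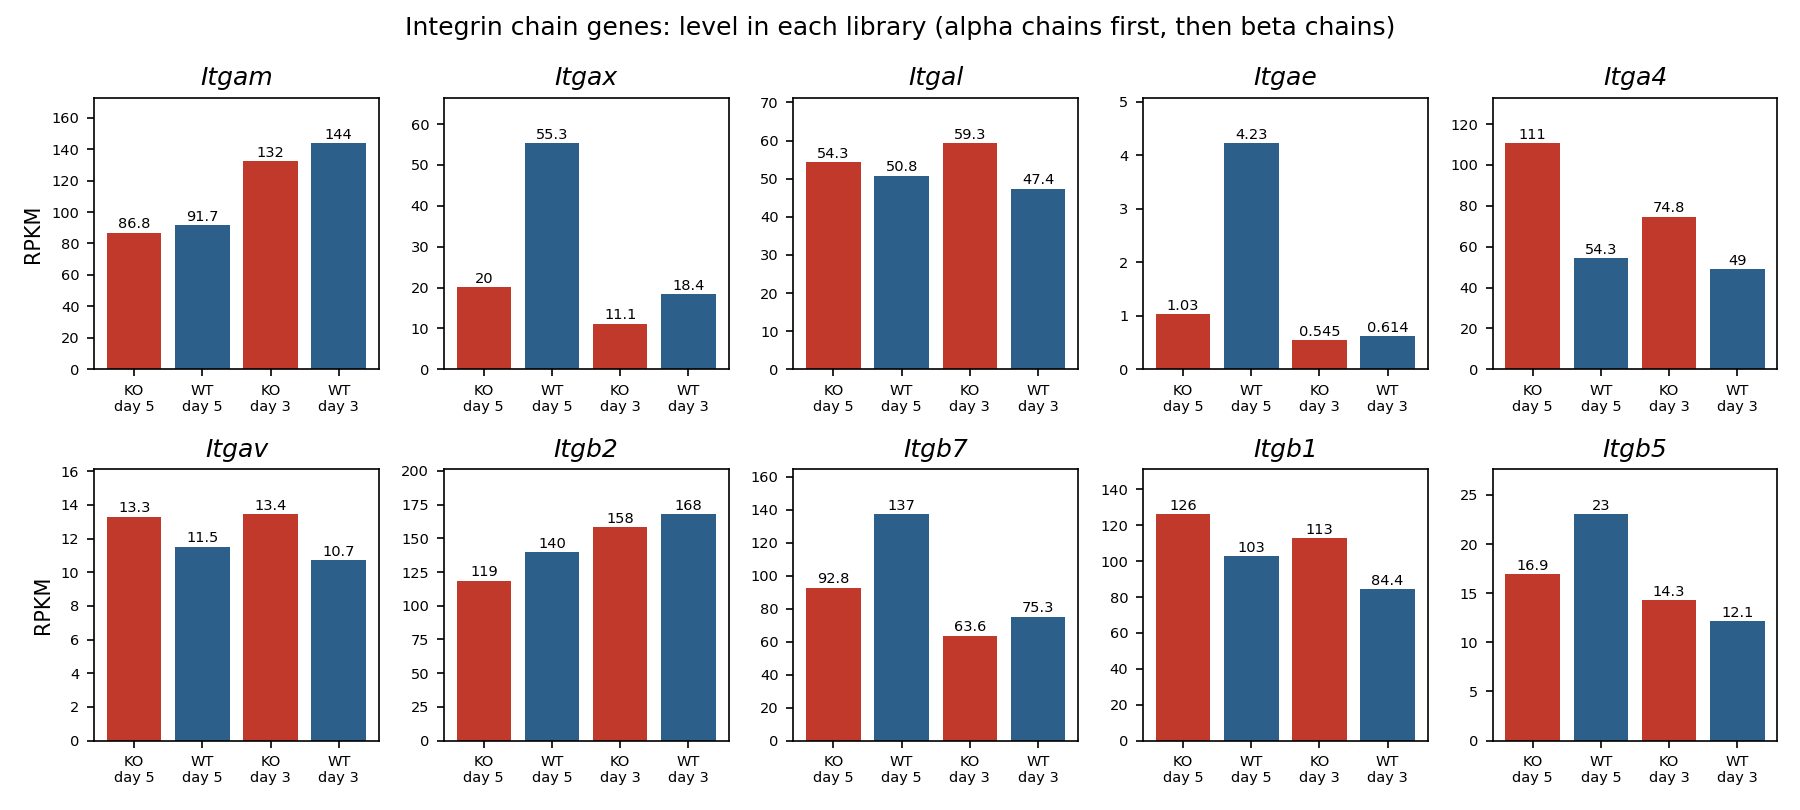
Level of each gene in RPKM (linear axis from 0, 1 scale per gene) in the 4 libraries, with the knockout (KO, red) left of wild type (WT, blue) and day 5 left of day 3. Each bar is 1 library, so there is no error bar; Itgax and Itgae stand highest in wild type at day 5 (55.3 and 4.23 RPKM) and Itga4 in the knockout at day 5 (111 RPKM).

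Since RPKM is per length, the alpha chains could be set against their common partner within a library. Itgax made up 12.4% of the summed RPKM of the Itgb2 partners (Itgam, Itgal, Itgax and Itgad) in the knockout and 27.9% in wild type at day 5, and 5.46% in the knockout and 8.75% in wild type at day 3. The share of Itgam was 53.6% in the knockout and 46.2% in wild type at day 5, and 65.1% in the knockout and 68.4% in wild type at day 3. Itgam was the leading partner throughout, and Itgad held under 1% in each library. The share of Itgal was 33.5% in the knockout and 25.6% in wild type at day 5, and 29.2% in the knockout and 22.6% in wild type at day 3. Expressed as a ratio, Itgax over Itgam was 0.231 (0.217 to 0.245) in the knockout and 0.603 (0.579 to 0.628) in wild type at day 5, against 0.0839 (0.0777 to 0.0905) in the knockout and 0.128 (0.120 to 0.136) in wild type at day 3. The intervals of these 4 ratios do not overlap. Summed partners stood at 1.37 times Itgb2 in the knockout and 1.42 times in wild type at day 5, and at 1.28 times in the knockout and 1.25 times in wild type at day 3. The sum of partners relative to Itgb2 thus varied less between libraries than its makeup.

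**Figure D2:**
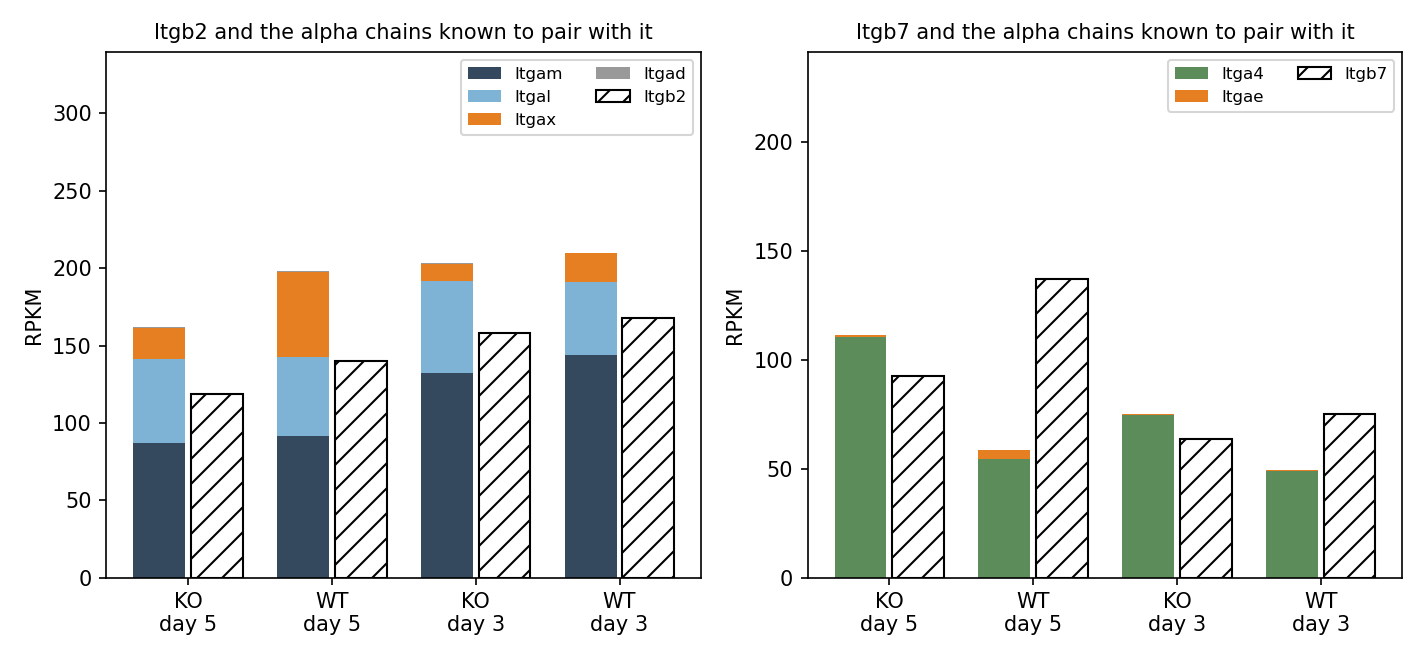
RPKM (linear axis from 0) of Itgb2 and Itgb7 (hatched bars) beside the stacked RPKM of the alpha chains known to pair with each, in 1 library per group, the knockout (KO) left of wild type (WT) and day 5 left of day 3. Itgax makes up 27.9% of the Itgb2 partners in wild type at day 5, and Itga4 exceeds Itgb7 in the knockout libraries but not in the wild-type ones.

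Among the chains of the Itgb7 pairs, the genotypes differed in opposite directions. Itga4 (NM_010576) had 111 RPKM in the knockout and 54.3 RPKM in wild type at day 5, and 74.8 RPKM in the knockout and 49.0 RPKM in wild type at day 3. Both knockout libraries lay above both wild-type libraries, with a ratio of 2.04 (1.98 to 2.09) at day 5 and 1.52 (1.48 to 1.57) at day 3. Itgb7 (NM_013566) had 92.8 RPKM in the knockout and 137 RPKM in wild type at day 5, and 63.6 RPKM in the knockout and 75.3 RPKM in wild type at day 3. It was lower in the knockout, with a ratio of 0.676 (0.649 to 0.704) at day 5 and 0.845 (0.803 to 0.890) at day 3, and higher at day 5 than at day 3 in each genotype, by ratios of 1.46 (1.39 to 1.53) in the knockout and 1.82 (1.74 to 1.90) in wild type. The ratio of Itga4 to Itgb7 was 1.19 (1.15 to 1.24) in the knockout and 0.396 (0.383 to 0.409) in wild type at day 5, and 1.17 (1.13 to 1.22) in the knockout and 0.651 (0.624 to 0.680) in wild type at day 3. Itga4 was therefore the more abundant transcript of this pair in the knockout libraries and Itgb7 in the wild-type libraries.

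Itgae (NM_001361245) was the lowest member in every library, with 1.03 RPKM in the knockout (61 reads) and 4.23 RPKM in wild type (262 reads) at day 5, and 0.545 RPKM in the knockout (34 reads) and 0.614 RPKM in wild type (36 reads) at day 3. The wild-type day 5 library stood apart from the other 3. Knockout over wild type gave 0.244 (0.181 to 0.323) at day 5, and at day 3 it gave 0.889 with an interval that included 1 (0.539 to 1.46). Day 5 over day 3 gave 1.89 (1.22 to 2.96) in the knockout and 6.89 (4.85 to 10.1) in wild type. Markers of cross-presenting dendritic cells differed alongside Itgae and Itgax. Of 8, 7 were lower in the knockout by at least 1 on the log2 scale at day 5 and 0 at day 3. The shares over all genes were 3.22% and 0.882%. Between the days, 6 were higher at day 5 in wild type and 0 in the knockout, against 1.8% and 0.594% of all genes. At day 5, 6 of the 8 megakaryocyte and platelet markers were also lower in the knockout by that measure, and 0 at day 3. In wild type 6 of them were higher at day 5 than at day 3, and in the knockout 0. The pattern was thus shared by both lists, and the part of either list in the 2 integrin results was not tested.

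At day 5, Itgb1 and the chains of the Itgav and Itgb5 pair differed less between the genotypes than Itga4, Itgb7 and Itgae. Itgb1 (NM_010578) had 126 RPKM in the knockout and 103 RPKM in wild type at day 5, and 113 RPKM in the knockout and 84.4 RPKM in wild type at day 3, and knockout over wild type gave 1.23 (1.19 to 1.27) at day 5 and 1.34 (1.29 to 1.38) at day 3. Itgav (NM_008402) had 13.3 RPKM in the knockout and 11.5 RPKM in wild type at day 5, and 13.4 RPKM in the knockout and 10.7 RPKM in wild type at day 3, with ratios of 1.15 (1.07 to 1.24) and 1.25 (1.16 to 1.35). Both genes were higher in the knockout at each day. Itgb5 (NM_001145884) had 16.9 RPKM in the knockout and 23.0 RPKM in wild type at day 5, but 14.3 RPKM in the knockout and 12.1 RPKM in wild type at day 3. Its ratio was thus on either side of 1, at 0.735 (0.673 to 0.803) at day 5 and 1.18 (1.06 to 1.31) at day 3. Its log2 difference at day 3 of 0.22 was 0.060 after rescaling to a common median ratio. Day 5 over day 3 for Itgb5 gave 1.18 (1.07 to 1.31) in the knockout and 1.89 (1.72 to 2.09) in wild type. Itgav over Itgb5 was 0.786 (0.721 to 0.856) in the knockout and 0.501 (0.463 to 0.542) in wild type at day 5, against 0.941 (0.862 to 1.03) in the knockout and 0.883 (0.800 to 0.976) in wild type at day 3.

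**Figure D3:**
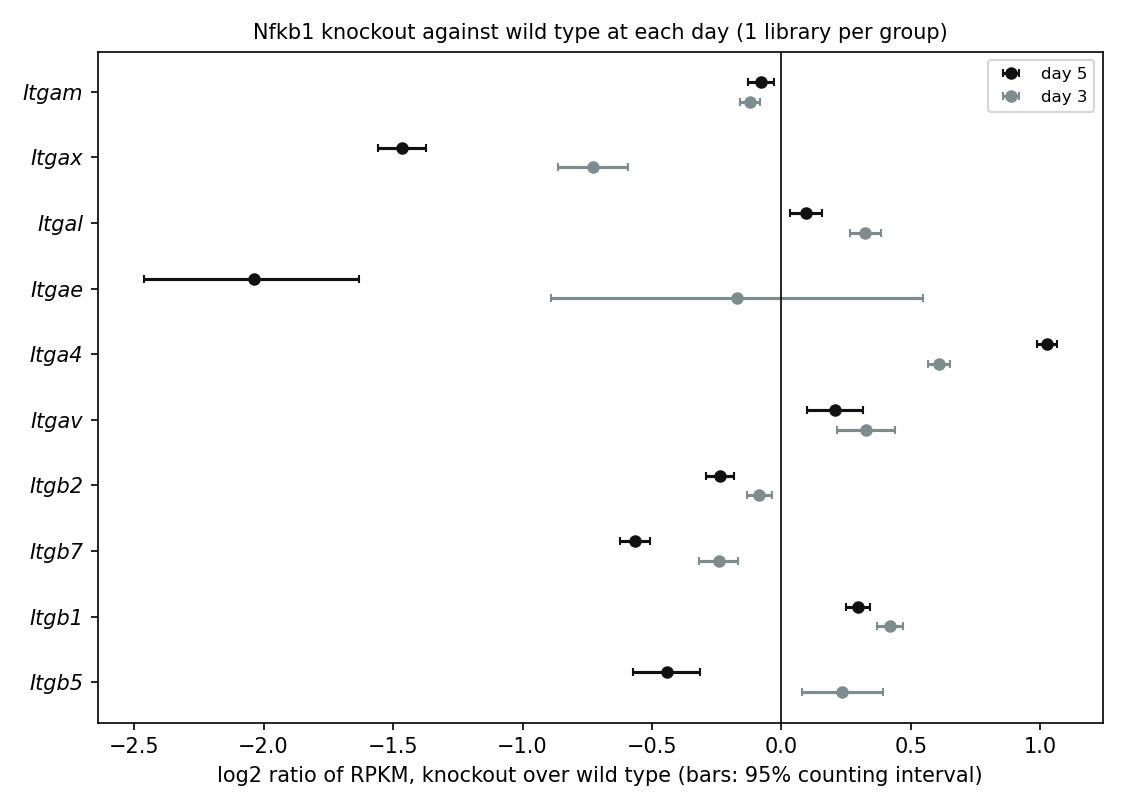
Log2 ratio of RPKM, knockout over wild type, for each gene at day 5 (black) and day 3 (grey); bars are exact 95% counting intervals and do not include variation between cultures. At day 5 Itgae and Itgax lie lowest (ratios of 0.244 and 0.362) and Itga4 highest (2.04), and Itgb5 lies on opposite sides of 0 at the 2 days, with its day 3 log2 difference of 0.22 at 0.060 after rescaling to a common median ratio.

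The order of the members by RPKM differed between the libraries. Itgb1 led in the knockout at day 5, and Itgb2 led in wild type at day 5 and in both genotypes at day 3. Itgam held place 5 in the knockout and place 4 in wild type at day 5, and place 2 in both libraries of day 3. Itga4 held place 3 in the knockout and place 6 in wild type at day 5, and place 4 in the knockout and place 5 in wild type at day 3. Neighbours in this order whose ratio could not be told from 1 by counting error were Itgb2 and Itgb7, and Itgax and Itga4, in wild type at day 5, Itgb5 and Itgav in the knockout at day 3, and Itga4 and Itgal in wild type at day 3. All other neighbours were separated beyond counting error. The 10 genes together held 0.203% of all RPKM in the knockout and 0.208% in wild type at day 5, and 0.191% in the knockout and 0.194% in wild type at day 3.

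A difference in log2(RPKM + 1) of 1 or more, either way, was taken as called. Of the 10 members, 3 were called between the genotypes at day 5, 1 as higher and 2 as lower in the knockout. The background over the 11786 genes averaging 1 RPKM or more was 4.39%, with 1.16% higher and 3.22% lower. Itgax was lower in the knockout, with a difference of -1.42, and so was Itgae, with -1.36, while Itga4 was higher by 1.01, just past the rule. Itgae averaged under 1 RPKM over the other 3 libraries and passed the filter only through wild type at day 5, so its calls against that library, here and in the comparisons that follow, are values and lend no support to the counts. After rescaling the libraries to a common median ratio Itga4 stood at 0.99, and with a pseudocount of 5 RPKM Itga4 stood at 0.96 and Itgae at -0.61, all short of the rule. At day 3, 0 of the 10 were called, where the background was 1.86%, with 0.976% higher and 0.882% lower. The median over the members was -0.16 at day 5 and 0.08 at day 3, against 0.01 and 0.13 over all genes. Since the median of all genes at day 3 was itself raised, the differences there relative to it were 0.47 for Itga4, 0.28 for Itgb1, 0.19 for Itgal, 0.17 for Itgav and 0.09 for Itgb5. They were -0.81 for Itgax, -0.37 for Itgb7, -0.25 for Itgam, -0.21 for Itgb2 and -0.19 for Itgae.

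Between the days, 2 of the 10 were called in wild type (1 without Itgae), where the background was 3.85%, with 1.8% higher and 2.05% lower at day 5. These were Itgae, higher at day 5 by 1.70 (0.72 with a pseudocount of 5 RPKM), and Itgax, higher by 1.54. In the knockout 0 of the 10 were called, with a background of 3.61%, of which 0.594% higher and 3.01% lower. The members' median was 0.19 in the knockout and 0.21 in wild type, against 0.04 and 0.16 over all genes. The genotype difference at day 5 minus that at day 3 was past the rule only for Itgae among the members, at -1.30 (-0.60 with a pseudocount of 5 RPKM), where 3.63% of all genes were past it (1% upward and 2.63% downward), and it was -0.74 for Itgax, -0.64 for Itgb5 and 0.41 for Itga4. In reads, that ratio of ratios was 0.274 (0.154 to 0.493) for Itgae and 0.600 (0.535 to 0.673) for Itgax. The wild-type day 5 library entered each of the comparisons with a called member. For the change of the genotype difference that member was Itgae alone, which passed the filter only through this library and lends no support. The comparisons without wild type at day 5, genotype at day 3 and day in the knockout, held 0 called members. For 10 genes that is near the backgrounds of 1.86% and 3.61%, so no contrast is drawn from it. For Itga4, though, the knockout stood apart at day 5, with 111 RPKM, against 74.8 RPKM at day 3. Wild type had 54.3 RPKM at day 5 and 49.0 RPKM at day 3.

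**Figure D4:**
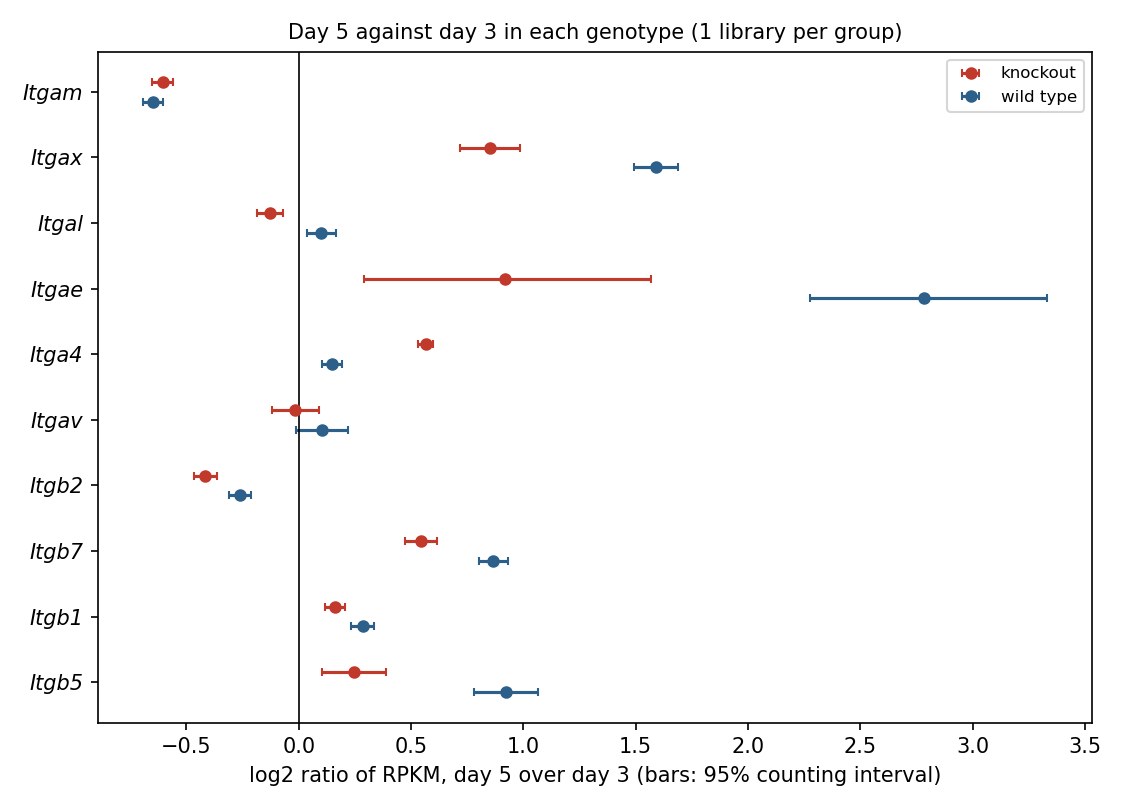
Log2 ratio of RPKM, day 5 over day 3, for each gene in the knockout (red) and in wild type (blue); bars are exact 95% counting intervals and do not include variation between cultures. Itgax (1.81 and 3.01 as ratios) and Itgae (1.89 and 6.89) lie furthest to the right in both genotypes. Itgam (0.657 and 0.638) and Itgb2 lie below 0 in both. Itgal and Itgav lie on opposite sides of 0, and the intervals of Itgav include 0 in both genotypes. The wild-type log2 difference of Itgal, 0.10, turned to -0.07 after rescaling to a common median ratio.

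An additive limma fit over the 4 libraries, with genotype and day as terms and 1 residual degree of freedom, tested the difference shared by the days or by the genotypes. For genotype it called 0 of the 10 members and 0% of all genes at an adjusted p under 0.05, and 2278 genes (19.3%) at an unadjusted p under 0.05, among them 2 members. These were Itgax, with a difference of -1.05 ± 0.21 (SE, limma adjusted p = 0.111), lower in the knockout at 2 of 2 days, and Itga4, with 0.81 ± 0.17 (limma adjusted p = 0.117), higher at 2 of 2 days. For day it called 0 of the 10 members, against 1.15% of all genes (0.136% higher and 1.02% lower at day 5). Of all genes 17.8% had an unadjusted p under 0.05, as did 5 members, Itgae included. The lowest adjusted p among them was that of Itgax, with a difference of 1.17 ± 0.21 (SE, limma adjusted p = 0.0696), followed by Itgb7, with 0.70 ± 0.16 (limma adjusted p = 0.117), and Itgam, with -0.62 ± 0.15 (limma adjusted p = 0.122).
The same design fitted with limma voom on the recovered reads called 3 members for genotype, where it called 6.86% of all genes. They were Itgax (log2 difference -1.12, limma adjusted p = 0.00269), Itga4 (0.82, limma adjusted p = 0.00768) and Itgae (-1.44, limma adjusted p = 0.0353). For day it called 4 members, against 6.3% of all genes, namely Itgax (1.24, limma adjusted p = 0.000714), Itgae (2.01, limma adjusted p = 0.00606), Itgb7 (0.70, limma adjusted p = 0.0109) and Itgam (-0.63, limma adjusted p = 0.0169). The call thus depended on the fit, and in either one the error is the departure from additivity of single libraries. Itgae passed the filter on low values only through wild type at day 5, so its calls lend no support to the voom counts.

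Of the other 16 integrin subunit genes, 7 had a mean of at least 1 RPKM. At day 5, 2 of them passed the size rule as lower in the knockout and 0 as higher, against 3.22% and 1.16% of all genes. The median of the 7 was -0.78 against 0.01 over all genes. Itga2b, the alpha chain of the platelet fibrinogen receptor, had 49.8 RPKM in the knockout and 125 RPKM in wild type at day 5, a difference of -1.31. Its partner Itgb3 had 40.4 RPKM in the knockout and 92.9 RPKM in wild type at day 5, a difference of -1.18. At day 3 the knockout and wild type were close, at 47.2 and 44.9 RPKM for Itga2b and at 39.5 and 36.9 RPKM for Itgb3. In wild type, 4 of the 7 were higher at day 5 than at day 3, and in the knockout 0 of 7. Over all genes, 1.8% were higher in wild type and 0.594% in the knockout. The 4 were Itga2b (by 1.46), Itgb3 (1.31), Itga6, a laminin receptor chain (1.27), and Itga2, a collagen receptor chain (1.21). The 8 megakaryocyte and platelet markers, Itga2b among them, summed to 377 RPKM in the knockout and 828 RPKM in wild type at day 5 and to 391 RPKM in the knockout and 339.8 RPKM in wild type at day 3, with 6 of 8 lower in the knockout at day 5, and their part in these values was not tested. Itgb2l, a relative of Itgb2 found in neutrophils and named here after its values were seen, had 7.22 RPKM in the knockout and 33.5 RPKM in wild type at day 5, against 59.6 RPKM in the knockout and 83.9 RPKM in wild type at day 3.

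Integrins are switched to high affinity from inside the cell by talin, kindlin and the GTPase Rap, and signal through Src family kinases and Syk. Of the 27 measured genes of this machinery, 1 was called as lower and 0 as higher in the knockout at day 5 and 0 were called at day 3, with medians of -0.18 and 0.08 against 0.01 and 0.13 over all genes. These counts are near or below the background of 4.39% at day 5 and 1.86% at day 3. The one called at day 5 was the kinase Src, with 2.64 RPKM in the knockout and 6.45 RPKM in wild type. Between the days, Parvb, a parvin that links integrins to actin, was called in wild type, with 64.3 RPKM at day 5 and 20.1 RPKM at day 3, and 0 of 27 were called in the knockout, where the background was 3.85% for wild type and 3.61% for the knockout. Of the 14 measured ligands and counter-receptors, 1 was lower in the knockout at each day, and 0 were higher. Over all genes, 3.22% were lower and 1.16% higher at day 5, and 0.882% and 0.976% at day 3. Vcam1, the ligand of the Itga4 and Itgb1 dimer, had 2.24 RPKM in the knockout and 8.25 RPKM in wild type at day 5, and 9.29 RPKM in the knockout and 14.9 RPKM in wild type at day 3. Vcam1 was thus lower in the knockout at day 5, with a difference of -1.52. Thy1, a T cell surface protein that can bind the Itgam dimer, was the one called at day 3, with 1.17 RPKM in the knockout and 4.76 RPKM in wild type. In wild type, Spp1 (osteopontin, a ligand of Itgav dimers) had 139 RPKM at day 5 and 53.6 RPKM at day 3, and was thus higher at day 5. F11r (a junctional ligand of the Itgal dimer) had 9.07 RPKM at day 5 and 2.67 RPKM at day 3. Thy1 differed the other way in wild type, by -1.27, with 1.39 RPKM at day 5 and 4.76 RPKM at day 3. In the knockout, 1 of the 14 was called between the days, Vcam1, which was lower at day 5 with a difference of -1.67. There 3.01% of all genes were lower. The wild-type counts between the days were 2 higher and 1 lower of the 14, against 1.8% and 2.05% of all genes.

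The genes whose profile over the 4 libraries lay nearest to a member were sought among 5602 genes averaging 10 RPKM or more, by Euclidean distance of centred log2(RPKM + 1), for the 4 members whose highest and lowest library differed by at least 1. For Itgax they were Clec9a (distance 0.31), a lectin of cross-presenting dendritic cells, Clec1b (0.41), a platelet lectin, and the linker histone H1f2 (0.44). For Itgae they were the platelet genes Gp5 (0.25), Itga2b (0.30) and Clec1b (0.31). The added 1 RPKM brings the wild-type day difference of Itgae from a log2 ratio of 2.78 to 1.70. Genes with levels as low as that of Itgae were not searched. For Itga4 they were Mrpl52 (0.07), of the mitochondrial ribosome, Cacybp (0.08) and the chaperone Hsp90aa1 (0.09). For Itgb7 they were Shtn1 (0.06), Mir7033 (0.14), on 9 to 23 reads, and H2-DMa (0.15), which loads peptides on class II molecules. With 4 points per profile, the distances are a description.

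The other marker lists gave these values at day 5 between the genotypes. By the size rule, 10 of 11 neutrophil, 6 of 7 mast cell and basophil, 2 of 8 type 2 conventional dendritic, 2 of 9 plasmacytoid dendritic, 2 of 6 B cell, 2 of 5 T and NK cell, 1 of 4 erythroid and 0 of 2 stromal markers were lower in the knockout, and 0 of these were higher. Of the 9 monocyte and macrophage markers, 2 were higher and 1 lower. Over all genes at day 5, 3.22% were lower and 1.16% higher. At day 3, 4 of the 5 T and NK cell markers (Thy1 among them) and 3 of the 4 erythroid markers were lower in the knockout, and 1 of the 9 monocyte and macrophage markers, Ly6c2, was higher, by 1.03. Over all genes at day 3, 0.882% were lower and 0.976% higher. The part of these cell types in the integrin values was not tested.

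Reads of some members could be shared with other genes. In the GENCODE M21 transcripts, 66.3% of the 50-base words of Itgam also occurred in Gm49368, whose exons overlap those of Itgam and which has no row in the table. How the authors' counting treated such reads is not known, so the level of Itgam, its partner share and the ratio of Itgax to Itgam are uncertain to that extent. For Itgax, 8.02% of the words occurred in Itgad, its near relative, which held 33 to 47 reads a library. Exons of Itga4 overlapped those of Cerkl, on the opposite strand, over 127 bases, and no source used here says whether the counting used strand. The share of words found elsewhere was 7.51% for Itga4, 7.25% for Itgb5, 5.404% for Itgav and 1.05% for Itgb2. Itgal, Itgae, Itgb1 and Itgb7 shared no such word with another gene.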

How the data were processed

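Polyadenylated RNA was sequenced in 4 libraries, 1 per genotype and day. HISAT2, SAMtools and the mm9 build were used, per the submitters' processing notes, and the counting tool, annotation and strand setting were not stated there or in the labels. Values as deposited are RPKM, named so per the file headers, and no value was 0.

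From the steps of the RPKM values and reference transcript lengths, library totals and whole reads of all 26026 genes were recovered (tolerance 0.003 reads). Whether 1 read stands for none, or was added to every gene, is unsettled, and 7985 genes stood at 1 read throughout. The totals were 15398985 (knockout, day 5), 16116361 (wild type, day 5), 16215214 (knockout, day 3) and 15255070 (wild type, day 3) reads. Intervals are exact (Clopper-Pearson) 95% intervals of reads, which are not independent molecules. For ratios of ratios they are conditional odds ratio intervals.

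Values were taken as log2(RPKM + 1), which understates differences of low genes. Genes averaging 1 RPKM or more (11786, all 10 members among them) were compared. An additive limma 3.58.1 fit (empirical Bayes, Benjamini-Hochberg over all these genes, threshold 0.05) served as support. Other pseudocounts, filters, scalings, limma settings and voom were alternatives. Procedures were run on simulated data with planted differences well past the size rule, which does not check calls near that rule. The members, lists and tests were chosen with earlier results of these data known. All members are described, and of each list up to 4 genes past the size rule per comparison could be named. Promoters came from RefSeq (GRCm38.p6).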

Additional observations from a re-analysis of the deposited data

Results flagged for a closer look

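Itgb5 stood out because its genotype differences had opposite signs at the 2 days, at -0.42 at day 5 and 0.22 at day 3 (log2(RPKM + 1), knockout minus wild type), with the day 3 value at 0.060 after rescaling to a common median ratio. Itgal was flagged because it was lower at day 5 than at day 3 in the knockout (-0.13) and higher in wild type (0.10), with the wild-type value turning to -0.07 after rescaling to a common median ratio. Neither difference between the groups was tested, since 1 library per group leaves no replicate for an interaction.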

How the results depend on the processing

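Of the 7 counts of members, those between the genotypes at day 3 and between the days in the knockout stayed at 0 under every setting tried. With a pseudocount of 5 RPKM, called members numbered 1 between the genotypes at day 5, 1 between the days in wild type and 0 for the change of the genotype difference. With a mean of at least 5 RPKM, which drops Itgae, the last 2 counts were 1 and 0. With voom on recovered reads, limma called 3 members for genotype and 4 for day, Itgae included in both. Of 295 recomputed member differences 7 turned sign, and none of these was past the size rule as reported. In the limma fit for day, Itgav turned to -0.049 with the median ratio rescaling and Itgal to 0.013 with the same sum of RPKM. Over limma settings other than voom, the adjusted p of Itgax ran from 0.0769 to 0.446 for genotype and from 0.0524 to 0.417 for day, and that of Itga4 for genotype from 0.0808 to 0.367. Genes past the rule between the genotypes numbered 517 at day 5 and 219 at day 3, against 873 and 449 with a pseudocount of 0.1, 160 and 47 with 5, and 318 and 110 with a mean of at least 5 RPKM. At day 3, 115 were higher and 104 lower, and 70 and 156 after the median ratio rescaling. That rescaling gave 145 higher and 346 lower between the days in wild type, against 212 and 242, and 151 and 214 for the change of the genotype difference, against 118 and 310. Between the days the counts were 425 in the knockout and 454 in wild type, against 681 and 804, 160 and 136, and 267 and 260 under those 3 settings. For genotype limma called 0 genes, but 20 with a mean of at least 5 RPKM, 19 with an intensity trend, 4 when robust and 808 with voom. For day it called 136, and between 0 and 743 over the alternatives.

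Replicates could not be paired, because each group had 1 library and no replicate numbers to pair by. The additive limma fit holds day as a term and so compares the genotypes within day, with 1 residual degree of freedom. Leaving out a library leaves no residual degree of freedom. Depth limits Itgae, on 34 to 262 reads.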
